A study of Mus musculus with 12 samples.

Results

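The expression of 36 genes of glycolysis and the pentose phosphate pathway was examined by RNA sequencing in mouse bone marrow macrophages (BMMs), the primary precursors of osteoclasts. The 36 genes were taken as a fixed list of glucose and lactate transporters, glycolytic enzymes, subunits and kinases of pyruvate dehydrogenase and enzymes of both branches of the pentose phosphate pathway, out of 24421 genes listed. The 12 libraries fell into 6 conditions with 2 replicates each. In the loss-of-function experiment, BMMs from Mir182ΔM/ΔM mice (Mir182flox/flox LysMcre(+)) were compared with WT littermates (Mir182+/+LysMcre(+)). Cells were left without RANKL (basal) or had RANKL, the cytokine that drives osteoclast differentiation, for 5 days. In the gain-of-function experiment, basal BMMs from Mir182mTg mice (LSL-Mir182 LysMcre(+), a transgene silent until Cre removes a stop cassette) were compared with LysMcre(+) Control littermates. All mice, the WT and Control mice included, therefore carried Cre under the lysozyme M promoter, which is active in the myeloid lineage. All were given as C57BL/6, and the labels give 3 days of M-CSF for all cultures. The study also kept a source of M-CSF in the medium afterwards, with or without RANKL. The labels give no ages and do not say whether the 2 replicates of a condition, which the study calls biological, came from separate mice or cultures, so p-values measure the spread between these samples, which may be technical. Per the labels the 2 replicates were aligned with different programs, and same-numbered libraries deviated alike. The main fits have no replicate block and count that shared shift as spread, so fits with the replicate number as a block are given beside them.

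Glycolysis turns glucose into pyruvate through hexokinase, phosphofructokinase, aldolase and pyruvate kinase, and lactate dehydrogenase and the monocarboxylate transporters turn over and export the lactate. The pyruvate dehydrogenase complex instead turns pyruvate into acetyl-CoA inside the mitochondria, and its kinases phosphorylate the E1 subunit and switch it off. The oxidative branch of the pentose phosphate pathway makes NADPH, and the non-oxidative branch interconverts sugar phosphates with glycolysis. Osteoclast formation is known to be accompanied by the build-up of mitochondria, and mature osteoclasts draw on both oxidative phosphorylation and glycolysis.

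Levels are given as read counts divided by the library's total on genes and scaled to 1000000 (CPM), and fold changes as log2 differences on the log2(CPM + 1) scale with the standard error (SE) of the fit. Gene positions are those of GENCODE vM21 on GRCm38, the assembly that mm10 names. The libraries held 24951280 to 33050619 reads on genes, so 3 reads corresponded to 0.0908 to 0.120 CPM. The summed level of 6 macrophage markers was 5664 to 8539 CPM over the 12 libraries. That of 9 osteoclast markers was 47.5 to 83.8 CPM in the basal libraries, 9996 to 10334 CPM in WT RANKL and 3153 to 3163 CPM in Mir182ΔM/ΔM RANKL. The macrophage markers fell with RANKL, 6 of 6 in WT and 4 of 6 in Mir182ΔM/ΔM cells, with sums of 8345 to 8539 CPM in WT basal, 5664 to 5725 in WT RANKL, 7436 to 7454 in Mir182ΔM/ΔM basal and 5844 to 5949.7 in Mir182ΔM/ΔM RANKL. Of all genes tested, 22.0% were lower after RANKL in WT and 26.4% in Mir182ΔM/ΔM cells. The neutrophil genes were at low sums that also moved with both factors, with 90.9 to 100.04 CPM in WT basal, 21.9 to 22.2 in WT RANKL, 109 to 115 in Mir182ΔM/ΔM basal and 7.19 to 7.36 in Mir182ΔM/ΔM RANKL. All 7 tested were lower after RANKL in each genotype (median log2 fold change -1.76 in WT and -2.69 in Mir182ΔM/ΔM cells), and 6 of 7 were lower in Mir182ΔM/ΔM than in WT cells under RANKL, beside 30.9% of all genes. The sum was 49.5 to 50.7 CPM in Control and 107 to 117 in Mir182mTg cells, where none passed and all 7 were called higher with the replicate block, beside 6.94% of all genes. The part of these shifts in the values of the 36 genes was not tested. Other markers stayed low, with sums of 4.27 to 39.2 CPM over 5 stromal genes and at most 3.67 CPM over 4 B cell genes. T cell and erythroid genes were at or near 0. The 12 cell-cycle genes summed to 1926 to 2174 CPM in WT basal, 2486 to 2726 in Mir182ΔM/ΔM basal, 2589 to 2827 in WT RANKL and 3444 to 3586 in Mir182ΔM/ΔM RANKL. After RANKL 9 of the 12 were higher in Mir182ΔM/ΔM than in WT cells and none lower, beside 14.3% higher and 30.9% lower of all genes. In bulk RNA, fewer cells of a type and less RNA per cell cannot be told apart. Mir182 itself, whose mature product poly-A selection does not capture, had 79 and 123 reads in the Mir182mTg libraries and 0 in the Control libraries. No loss-of-function library had more than 1 read, so the deletion could not be checked from these reads.

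In both genes used to check the origin of the mice, the WT RANKL libraries were unlike the other libraries of their experiment. Lyz2, the lysozyme gene whose promoter drives the Cre, was at 4117 and 4288 CPM in WT RANKL and at 5783 to 7062 CPM in the gain-of-function libraries. It was at 44.0 and 39.8 CPM in WT basal, 34.6 and 31.2 in Mir182ΔM/ΔM basal and 24.0 and 22.5 in Mir182ΔM/ΔM RANKL. Ifi202b, an interferon-inducible gene whose expression differs between inbred strains, was at 1.12 and 0.972 CPM in WT RANKL against 112 and 93.4 CPM in WT basal and 152 and 143 CPM in Mir182ΔM/ΔM RANKL, and at most 0.0908 CPM in the gain-of-function libraries. In any comparison that uses the WT RANKL libraries, what set them apart and the effect of RANKL or of the genotype cannot be told apart. For that reason the response of the 35 genes in WT cells was also fitted with Control basal as the base, whose Lyz2 and Ifi202b levels were like those of WT RANKL but which came from another experiment. The Mir182ΔM/ΔM response, the basal comparison and the Mir182mTg comparison, compare no WT RANKL library.

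A microRNA pairs with its target mRNAs through its seed, mostly in the 3′ UTR, and lowers them. The sequence of miR-182 and its matches among these genes are therefore shown beside the basal comparisons, in which miR-182 was deleted or overexpressed. The mature miR-182 of the mouse (RefSeq, GRCm38.p6, chr6:30165962-30165986, minus strand) reads as follows, with the seed, bases 2 to 8, in capitals.
mmu-miR-182-5p: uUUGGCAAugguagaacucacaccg
Matches of 7 bases were searched in the 3′ UTRs of GENCODE vM21 (GRCm38), either TTGCCAA, the complement of the seed, or TGCCAAA, the complement of seed bases 2 to 7 followed by an A. Of the 36 genes, 6 held a match (16.7%), against 18.6% of the 19503 genes with a 3′ UTR. None held the 8-base match TTGCCAAA that joins them, against 4.64% of all genes. The 6 sites, each in a 3′ UTR, are given with the match in capitals.
Aldoc (chr11:78327190-78327219, plus strand): tgtctagaagcTTGCCAAgggctatgaccc
Slc16a3 (chr11:120959462-120959491, plus strand): gggagtctaatTTGCCAAtctcaccagact
Slc2a1 (chr4:119136800-119136829, plus strand): acttgccttctTTGCCAAgctaatctgtag
Dlat (chr9:50635599-50635628, minus strand): tgttttatatgTGCCAAAgttcacttatca
Ldha (chr7:46855592-46855621, plus strand): cccaagtgtcaTGCCAAAtaaaaccttgaa
Tpi1 (chr6:124810763-124810792, minus strand): ctcccccacggTGCCAAAgcccctgtattg
Of these 6 genes, Aldoc (brain-type aldolase) was lower in Mir182ΔM/ΔM than in WT cells without RANKL (-0.35 ± 0.070, adjusted p = 0.0425), a call lost when any 1 of the 8 libraries was left out (adjusted p = 0.0627 to 0.261). The other 5 did not pass the test there, with log2 differences from 0.066 for Slc2a1 to 0.27 for Ldha. In Mir182mTg against Control cells none of the 6 passed, with edgeR log2 fold changes from -0.085 for Dlat to 0.21 for Aldoc and SE of at most 0.12. With the replicate number as a block, Dlat, Ldha, Slc16a3 and Tpi1 were higher in Mir182ΔM/ΔM basal cells (adjusted p = 0.00802, 2.18e-07, 0.00123 and 3.97e-05) and Aldoc was lower (adjusted p = 1.77e-05). That block called 14 of the 35 genes tested higher there, with or without a match, and 18.6% of all genes. With the same block, Aldoc and Ldha were higher in Mir182mTg cells (adjusted p = 0.0203 and 0.00281), where 4 of the 35 genes and 6.94% of all genes were called higher. The part of the matches in these differences was not tested.

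Over the 36 genes, the mean log2(CPM + 1) was 6.21 ± 0.020 (SD, n = 2) in WT basal, 6.27 ± 0.022 in Mir182ΔM/ΔM basal, 6.47 ± 0.037 in WT RANKL and 6.41 ± 0.019 in Mir182ΔM/ΔM RANKL. It was 6.44 ± 0.015 in Control and 6.44 ± 0.020 in Mir182mTg cells. The means of both RANKL conditions lay above those of their basal conditions. The Mir182ΔM/ΔM RANKL mean was below the WT RANKL mean on this scale and above it once CPM were divided by TMM factors over the 12 libraries (6.44 ± 0.010 against 6.36 ± 0.047). The Control and Mir182mTg means differed by less than the spread between replicates. Per kilobase of transcript, the highest listed level among these mRNAs was that of Aldoa (aldolase A) in every condition, at 629 CPM per kb in WT basal and 1057 in Mir182ΔM/ΔM RANKL. Pkm (pyruvate kinase) came next, at 498 CPM per kb in WT basal and 854 in Mir182ΔM/ΔM RANKL. Gapdh (glyceraldehyde-3-phosphate dehydrogenase) was listed at only 1.59 to 3.32 CPM, and Eno1 (enolase 1) at 0 in all 12 libraries. Eno1 could therefore not be tested, and 35 genes entered each fit. Of the 50-base words in the annotated transcripts of Gapdh, 58.4% were also found in transcripts of 222 other genes, 213 of them pseudogenes. Of those of Eno1, 49.5% were found elsewhere, most in its near-identical copy Eno1b. Eno1b was at 4.19 and 2.04 CPM in WT basal and 17.3 and 22.9 CPM in WT RANKL. Its means were 3.21 CPM in Mir182ΔM/ΔM basal and 6.79 in Mir182ΔM/ΔM RANKL. Without RANKL they were 17.3 CPM in Control and 17.7 in Mir182mTg cells, near the WT RANKL level. Words shared with other genes made up over 10% for 14 of the 36 genes, with 68.0% for Pgk1, 41.5% for Pgam1, 30.3% for Pdhb, 23.7% for Pkm and 16.9% for Pdha1. They made up 0 for 14 others, among them Hk3, Pfkfb4, Aldoc, Dlat, the 3 kinases of pyruvate dehydrogenase and both lactate transporters. Levels of genes with shared words are uncertain, and the part this played in any difference was not tested.

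**Figure D1:**
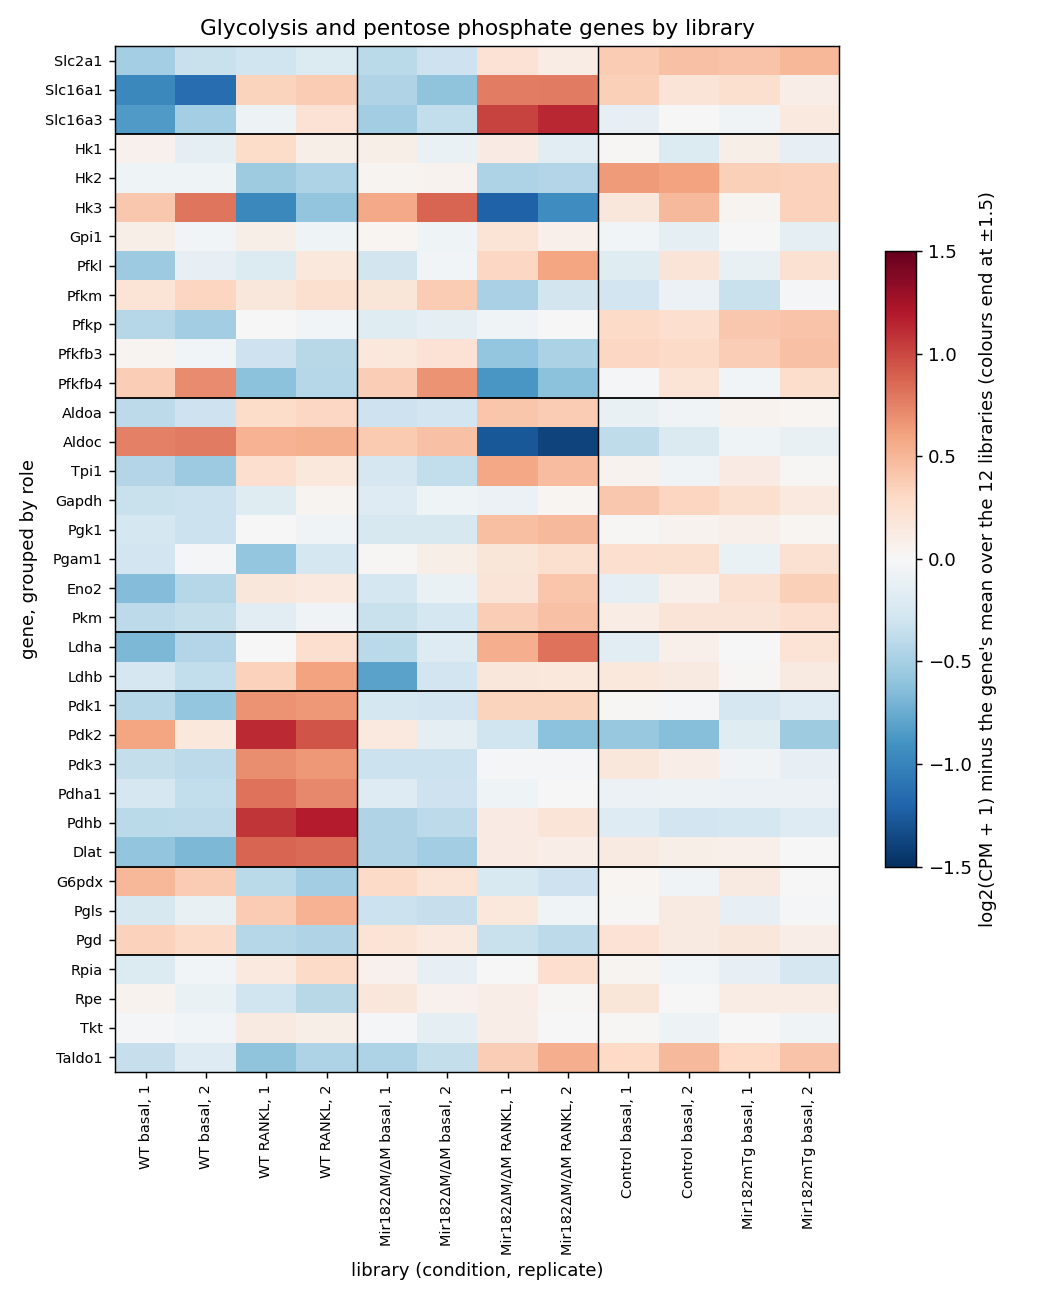
Level of 35 genes in the 12 libraries, as log2(CPM + 1) minus the gene's mean over the libraries (colour, ending at ±1.5), with the genes grouped by role (rows) and the libraries by condition and replicate (columns). The 6 rows of pyruvate dehydrogenase and its kinases are highest in both WT RANKL libraries, Aldoc is lowest in both Mir182ΔM/ΔM RANKL libraries, and the Control and Mir182mTg columns look alike.

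Most of these genes changed with RANKL in each genotype, some steps rising and others falling. In WT cells 18 of the 35 genes were higher and 9 lower after RANKL. In Mir182ΔM/ΔM cells 18 were higher and 8 lower (limma with Benjamini-Hochberg adjustment over 11691 genes, threshold 0.05). Among all genes tested, 40.6% were higher and 22.0% lower in WT cells, and 30.4% were higher and 26.4% lower in Mir182ΔM/ΔM cells. The share of the 35 genes called was thus above that background for increases (51.4% in each genotype) and near it for decreases (25.7% in WT and 22.9% in Mir182ΔM/ΔM cells). The median log2 fold change over the 35 genes was 0.27 in WT and 0.22 in Mir182ΔM/ΔM cells, beside 0.19 and 0.051 over all genes tested. In both genotypes the lactate transporters Slc16a1 and Slc16a3, Aldoa, Tpi1, Pgk1, Pkm, Eno2, both lactate dehydrogenases, Pgls and 5 of the 6 genes of pyruvate dehydrogenase and its kinases rose. Hk2, Hk3, Pfkfb3, Pfkfb4, Aldoc, G6pdx and Pgd fell in both.

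Scaling bears on the WT counts, since dividing by TMM factors moved the median of all genes from 0.19 to -0.0044 in the WT response, and from -0.14 to -0.0037 in Mir182ΔM/ΔM against WT cells after RANKL. With TMM factors 14 genes were higher and 11 lower in the WT response (28.8% and 30.5% of all genes). They gave 17 higher and 8 lower in the Mir182ΔM/ΔM response (28.3% and 28.6%). The replicate block gave 22 higher and 10 lower in WT cells (52.8% and 29.0% of all genes), and 22 and 9 in Mir182ΔM/ΔM cells (42.7% and 36.3%). With Control basal as the base of the WT response, 10 were higher and 13 lower (29.6% and 23.1% of 11794 genes tested). Of the 27 genes called with WT basal as the base, 16 were called in the same direction with Control basal (8 higher, 8 lower), 3 in the opposite direction (Pfkp, Aldoc and Pkm) and 8 were not called. Adding the replicate block to the Control basal fit gave 18 higher and 13 lower, beside 4957 and 3891 of all 11794 genes. Without the WT RANKL libraries in the fit, the Mir182ΔM/ΔM response gave 17 higher and 8 lower of 35 (29.7% and 26.4% of 11430 genes).

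**Figure D2:**
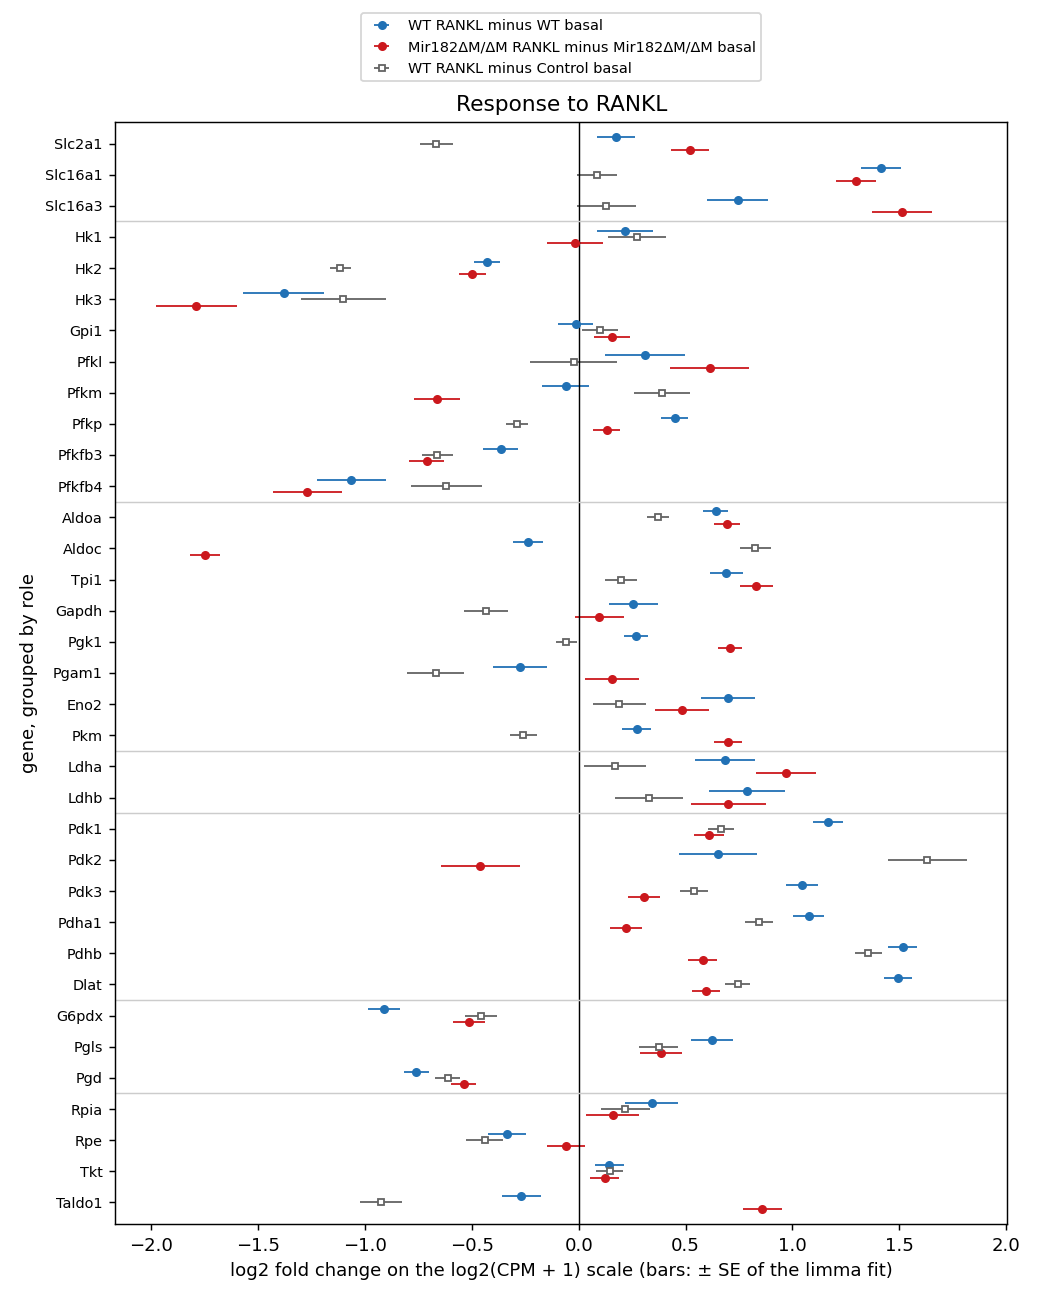
Log2 fold change with RANKL (x axis, log2(CPM + 1) scale, bars ± SE of the limma fit) of 35 genes grouped by role (y axis), in WT cells against WT basal (blue), in Mir182ΔM/ΔM cells (red) and in WT RANKL against Control basal (grey squares). Pdhb, Dlat, Pdha1, Pdk1 and Pdk3 lie to the right of 0 for all 3, with Mir182ΔM/ΔM cells nearer to 0 than WT cells against WT basal, and Aldoc and Taldo1 lie far apart between the genotypes.

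After RANKL, Mir182ΔM/ΔM cells had more mRNA of all 3 transporters and of Tpi1, Pgk1, Pgam1 and Pkm, 4 of the 8 genes of lower glycolysis tested. They had less of Aldoc, of the same group, and of all 6 genes of pyruvate dehydrogenase and its kinases than WT cells. Of the 35 genes, 10 were higher and 9 lower in Mir182ΔM/ΔM than in WT cells, where 14.3% of all genes tested were higher and 30.9% lower. The median over the 35 was 0.043 beside -0.14 over all genes. With TMM factors the split was 16 higher and 7 lower (20.9% and 20.2% of all genes). It was, with the replicate block, 15 higher and 14 lower (23.4% and 49.7%). The response itself differed between the genotypes for 14 genes (interaction term of the same fit), with 5 more positive and 9 more negative in Mir182ΔM/ΔM cells, beside 7.44% and 17.1% of all genes. The replicate block called 27 genes, 13 and 14 (16.1% and 42.8%). With TMM factors the interaction called 8 and 7 genes (10.6% and 10.9%). With Control basal as the base of the WT response, 14 were more positive and 6 more negative (21.5% and 25.8% of all genes). Of the 14 genes first called, 9 kept their call and direction, Pfkp was called in the opposite direction, and Pdk1, Pdk3, Dlat and G6pdx were not called. Among the 12 libraries, WT RANKL held the 2 highest values for 8 of the 35 genes, beside 22.0% of all genes, a share of the 35 (22.9%) near that background. Mir182ΔM/ΔM RANKL held the 2 highest values for 8 (Slc16a1, Slc16a3, Pfkl, Aldoa, Tpi1, Pgk1, Pkm and Ldha), beside 9.0% of all genes. WT RANKL held the 2 lowest values for Hk2, G6pdx, Pgd, Rpe and Taldo1 (7.17% of all genes), and Mir182ΔM/ΔM RANKL for Aldoc, Pfkfb3 and Pfkfb4 (16.8%).

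**Figure D3:**
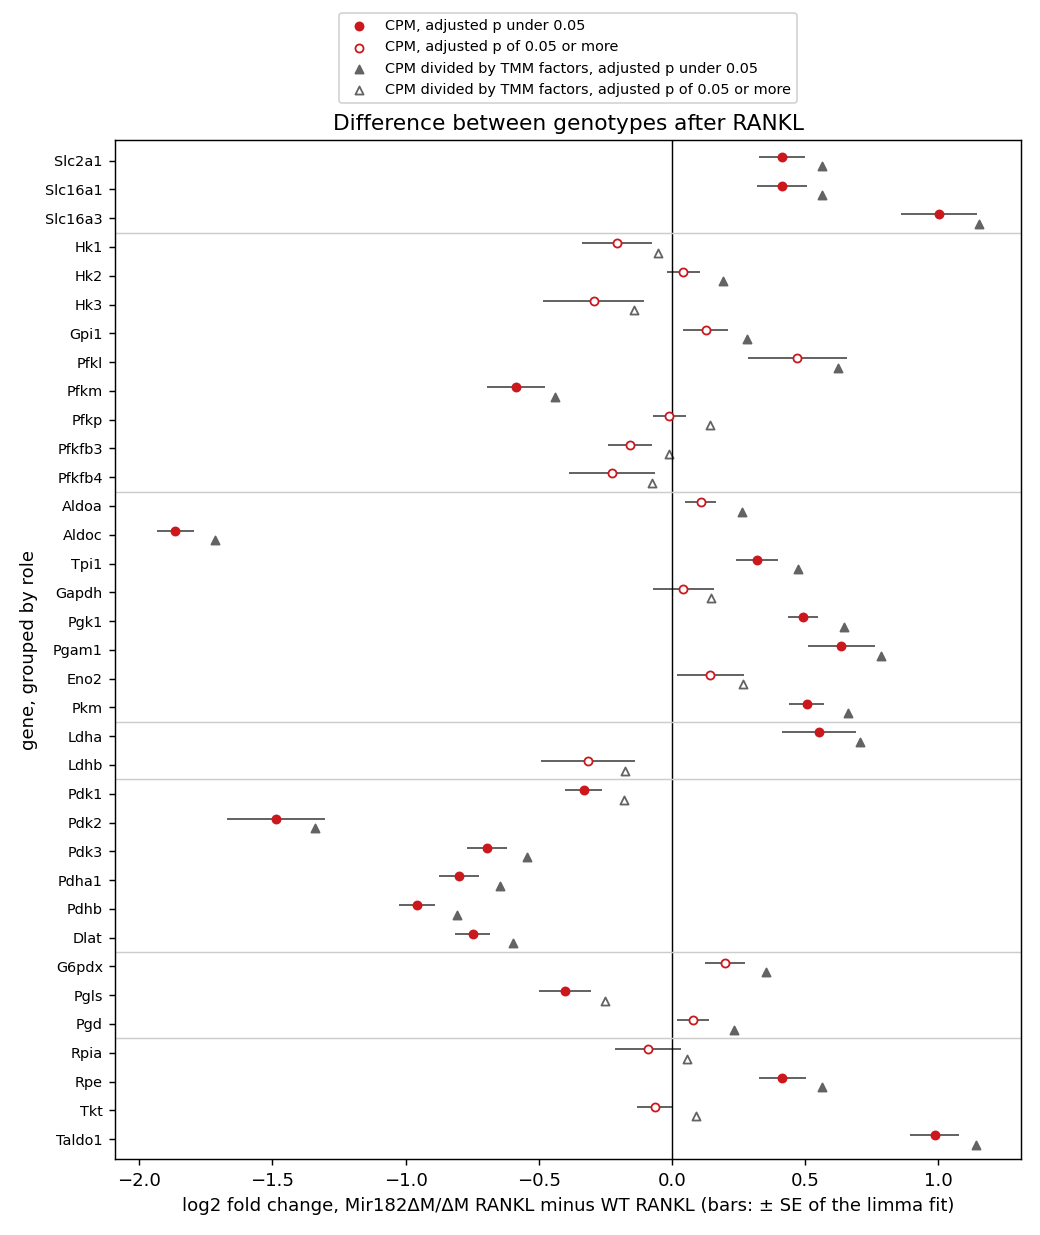
Log2 difference of Mir182ΔM/ΔM RANKL minus WT RANKL (x axis) for 35 genes grouped by role (y axis), from CPM (circles, bars ± SE) and from CPM divided by TMM factors (triangles), filled where the adjusted p is under 0.05. All 6 genes of pyruvate dehydrogenase and its kinases lie below 0 on both scales, and the 3 transporters, Pgk1, Pkm, Ldha and Taldo1 above 0.

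Pyruvate dehydrogenase and its kinases were raised together in WT cells after RANKL, and less so in Mir182ΔM/ΔM cells. All 6 genes were higher in WT cells after RANKL, and 5 of 6 were higher in Mir182ΔM/ΔM cells, beside 40.6% and 30.4% of all genes. All 6 had less mRNA and a smaller response in Mir182ΔM/ΔM cells than in WT cells under RANKL. Of all genes, 30.9% were lower in that comparison and 17.1% had a more negative response. The median log2 fold change of the 6 was 1.12 in WT and 0.44 in Mir182ΔM/ΔM cells. Pdhb, the beta subunit of the E1 enzyme (chr14:8165996-8173025, minus strand), was at 56.3 and 56.6 CPM in WT basal and 157 and 169.6 in WT RANKL. Pdhb was at 54.5 and 56.7 CPM in Mir182ΔM/ΔM basal and 81.5 and 85.8 in Mir182ΔM/ΔM RANKL. Control cells had 65.3 and 61.1 and Mir182mTg cells 62.0 and 64.9 CPM of Pdhb. Both WT RANKL libraries lay above the other 10, and the Mir182ΔM/ΔM RANKL libraries were next. Pdhb rose by 1.52 ± 0.068 in WT (adjusted p = 2.22e-06) and by 0.58 ± 0.068 in Mir182ΔM/ΔM cells (adjusted p = 0.000302). The difference between the responses was -0.94 ± 0.096, adjusted p = 0.000581. Pdha1, the alpha subunit of E1 that carries the phosphorylation sites (chrX:160122209-160138413, minus strand), was at 129.9 and 119 CPM in WT basal and 272 and 256 in WT RANKL. Pdha1 was at 135 and 124 CPM in Mir182ΔM/ΔM basal and 148 and 154 in Mir182ΔM/ΔM RANKL. Control cells had 146 and 147 and Mir182mTg cells 146 and 145 CPM of Pdha1. Its WT RANKL values stood above all others, and those of the other conditions lay close together. Pdha1 rose by 1.08 ± 0.075 in WT cells (adjusted p = 1.81e-05) and by 0.22 ± 0.075 in Mir182ΔM/ΔM cells (adjusted p = 0.0372). The Mir182ΔM/ΔM call was lost with TMM factors (adjusted p = 0.0572) and when either WT RANKL library, either Mir182ΔM/ΔM RANKL library or the second Mir182ΔM/ΔM basal library was left out (adjusted p = 0.0517 to 0.199). Dlat, the E2 acetyltransferase (chr9:50634633-50659780, minus strand), was at 45.0 and 42.5 CPM in WT basal and 126 and 124 in WT RANKL. Dlat was at 50.1 and 47.5 CPM in Mir182ΔM/ΔM basal and 75.0 and 73.4 in Mir182ΔM/ΔM RANKL. Control cells had 75.7 and 73.0 and Mir182mTg cells 72.2 and 68.8 CPM of Dlat. The Mir182ΔM/ΔM RANKL libraries thus sat at the level of Control cells, and the WT RANKL libraries above both. Dlat rose by 1.496 ± 0.066 in WT (adjusted p = 2.09e-06) and 0.60 ± 0.066 in Mir182ΔM/ΔM cells (adjusted p = 0.00023). Against Control basal the WT RANKL increases were 1.36 ± 0.064, adjusted p = 1.68e-07, for Pdhb, 0.84 ± 0.064, adjusted p = 4.34e-06, for Pdha1, and 0.75 ± 0.059, adjusted p = 5.66e-06, for Dlat. The differences between the responses then were -0.78 ± 0.090, adjusted p = 0.000122, -0.62 ± 0.090, adjusted p = 0.000476, and -0.15 ± 0.083, adjusted p = 0.166.

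The kinases that inactivate the complex moved in the same direction in WT cells. Pdk1 was at 70.8 and 63.4 CPM in WT basal and 153 and 151 in WT RANKL. Pdk1 was at 79.3 and 77.6 CPM in Mir182ΔM/ΔM basal and 120.4 and 120.2 in Mir182ΔM/ΔM RANKL. Control cells had 96.7 and 94.0 and Mir182mTg cells 80.03 and 82.9 CPM of Pdk1. Pdk3 was at 14.7 and 14.3 CPM in WT basal and 31.5 and 30.5 in WT RANKL. Pdk3 was at 15.0 and 15.0 CPM in Mir182ΔM/ΔM basal and 18.7 and 18.8 in Mir182ΔM/ΔM RANKL. Control cells had 21.5 and 20.5 and Mir182mTg cells 18.4 and 17.4 CPM of Pdk3. Both kinases were highest in the WT RANKL libraries, and their replicates lay close to each other in each condition. Pdk1 rose by 1.17 ± 0.070 in WT (adjusted p = 8.85e-06) and 0.61 ± 0.070 in Mir182ΔM/ΔM cells (adjusted p = 0.000271), and Pdk3 by 1.05 ± 0.074 (adjusted p = 2.01e-05) and 0.31 ± 0.074 (adjusted p = 0.0101, and 0.0503 without the first Mir182ΔM/ΔM basal library). Pdk2 (chr11:95026258-95041354, minus strand) was at 20.4 and 14.8 CPM in WT basal and 29.7 and 26.2 in WT RANKL. Pdk2 was at 14.6 and 11.9 CPM in Mir182ΔM/ΔM basal and 10.5 and 8.22 in Mir182ΔM/ΔM RANKL. Control cells had 8.56 and 8.09 and Mir182mTg cells 11.5 and 8.74 CPM of Pdk2. Its Mir182ΔM/ΔM RANKL libraries lay below the Mir182ΔM/ΔM basal libraries, although the change did not pass (-0.46 ± 0.18, adjusted p = 0.0670, and 2.31e-05 with the replicate block). The difference between genotypes after RANKL was the largest of the 6 (-1.49 ± 0.18, adjusted p = 0.000635). The WT increase of Pdk2 (0.65 ± 0.18, adjusted p = 0.0173) was lost with TMM factors (adjusted p = 0.0674) and without the first WT RANKL or the second WT basal library (adjusted p = 0.0844 to 0.0931). Its interaction (-1.11 ± 0.26, adjusted p = 0.0201) was lost without the first WT RANKL, the first Mir182ΔM/ΔM basal or the second Mir182ΔM/ΔM RANKL library (adjusted p = 0.0675 to 0.0685). After RANKL the Mir182ΔM/ΔM minus WT difference was -0.33 ± 0.070, adjusted p = 0.00758, for Pdk1, which missed the threshold with TMM factors (adjusted p = 0.0719), and -0.69 ± 0.074, adjusted p = 0.00032, for Pdk3. With Control basal as the base the WT increases remained for all 3 kinases, at 0.66 for Pdk1, 1.63 for Pdk2 and 0.54 for Pdk3. The difference between the responses then passed only for Pdk2 among them (-2.09 ± 0.26, adjusted p = 0.000188).

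The other genes of the complex, taken from a list of further pathway genes, followed it in part. Dld, the E3 subunit, was at 122 and 104 CPM in WT basal, 251 and 239.8 in WT RANKL, 122 and 110.0 in Mir182ΔM/ΔM basal and 151 and 148 in Mir182ΔM/ΔM RANKL. It rose by 1.12 ± 0.092, adjusted p = 4.11e-05, in WT and by 0.36 ± 0.092, adjusted p = 0.0118, in Mir182ΔM/ΔM cells. Pdhx, which binds E3 into the complex, rose by 0.86 ± 0.074, adjusted p = 5.52e-05, and 0.37 ± 0.074, adjusted p = 0.00430. Of the phosphatases that reactivate the complex, Pdp1 fell by 0.99 in WT and 0.86 in Mir182ΔM/ΔM cells on the log2 scale, while Pdp2 fell by 0.60 and 0.90 (adjusted p of at most 0.00825). The WT falls depended on the base. Mean Pdp1 was 48.1 CPM in WT basal, 27.9 in Control basal and 23.6 in WT RANKL, and mean Pdp2 30.3, 19.2 and 19.6. Dld and Pdhx were at means of 148 and 33.1 CPM in Control basal, below the 245 and 46.7 of WT RANKL. The 9 osteoclast markers moved with these genes, with 9 of 9 higher after RANKL in each genotype, and under RANKL 7 of 9 lower and 1 higher in Mir182ΔM/ΔM than in WT cells. Of all genes, 40.6% were higher after RANKL in WT and 30.4% in Mir182ΔM/ΔM cells. Under RANKL 30.9% of all genes were lower and 14.3% higher in Mir182ΔM/ΔM than in WT cells. The part of osteoclast content in the pyruvate dehydrogenase values was not tested.

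**Figure D4:**
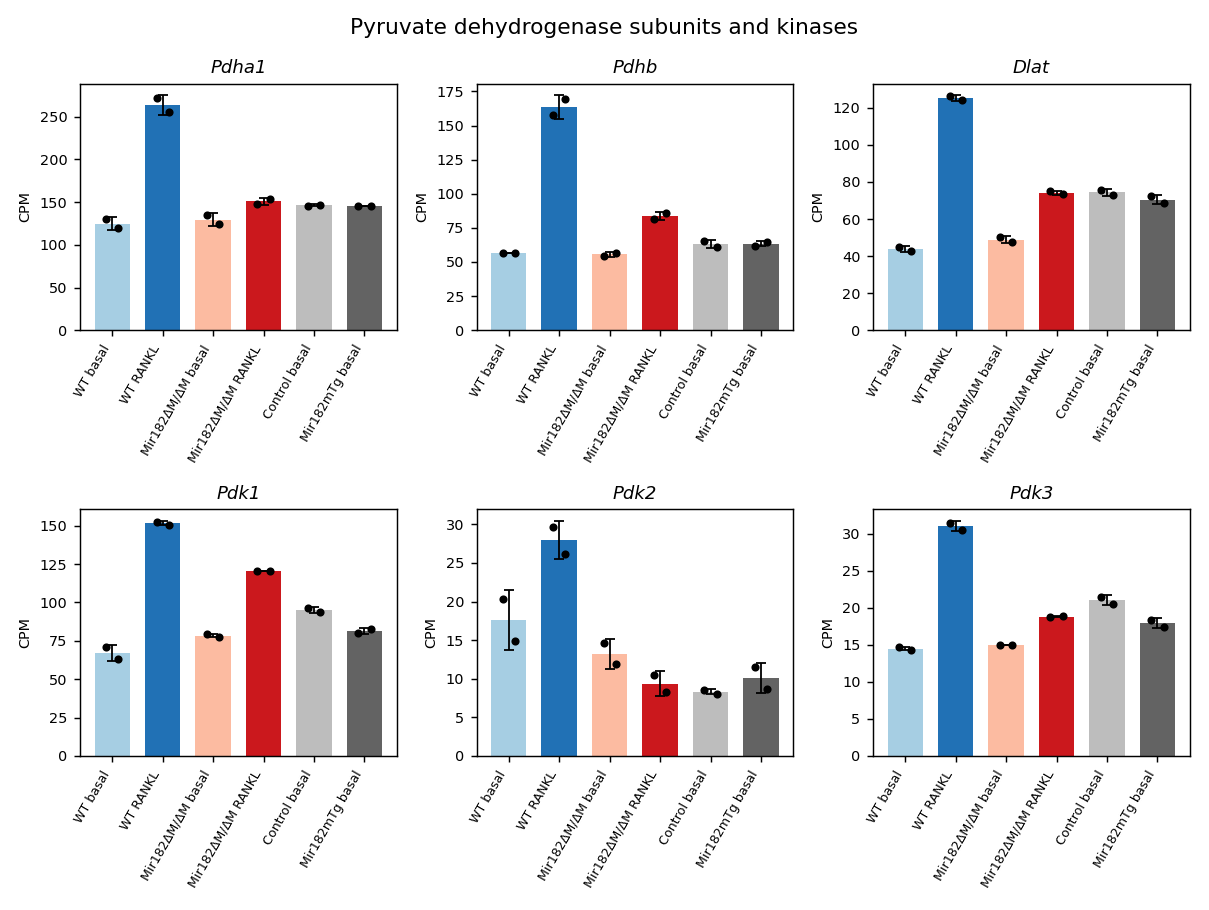
CPM (y axis, from 0) of 3 pyruvate dehydrogenase subunits and 3 kinases in the 6 conditions (x axis), with bars for the mean, error bars for the SD of 2 replicates and points for the libraries. In each panel the WT RANKL bar is the highest, and only for Pdk2 does the Mir182ΔM/ΔM RANKL bar lie below its basal bar.

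Against their own basal cells, the transporters of lactate rose with RANKL in both genotypes, and that of glucose in Mir182ΔM/ΔM cells. Against Control basal neither lactate transporter passed in WT RANKL and the glucose transporter was lower. With the replicate block added, Slc16a3 was called higher there (adjusted p = 0.0214) and Slc16a1 was not (adjusted p = 0.240). All 3 were higher in Mir182ΔM/ΔM cells after RANKL (30.4% of all genes). In WT cells 2 of 3 were higher (40.6% of all genes), and 3 of 3 with the replicate block (52.8%). With Control basal as the base 0 were higher and 1 lower (29.6% and 23.1%). All 3 were higher in Mir182ΔM/ΔM than in WT cells after RANKL (14.3% of all genes). Slc16a3 (MCT4, a lactate exporter of glycolytic cells, chr11:120948480-120960868, plus strand) was at 36.4 and 46.3 CPM in WT basal and 62.6 and 77.0 in WT RANKL. Slc16a3 was at 45.9 and 51.1 CPM in Mir182ΔM/ΔM basal and 135 and 146 in Mir182ΔM/ΔM RANKL. Control cells had 60.5 and 66.4 and Mir182mTg cells 63.9 and 73.6 CPM of Slc16a3. The Mir182ΔM/ΔM RANKL libraries lay above all others. Slc16a3 rose by 1.51 ± 0.14 in Mir182ΔM/ΔM cells (adjusted p = 0.000101) and by 0.74 ± 0.14 in WT cells (adjusted p = 0.00298), where the difference from Control basal was 0.13 ± 0.14, adjusted p = 0.465. The genotypes differed after RANKL by 1.003 ± 0.14, adjusted p = 0.00122. The interaction of Slc16a3 (0.77 ± 0.20, adjusted p = 0.0314) was lost without the first WT RANKL, the second WT basal or any 1 of the 4 Mir182ΔM/ΔM libraries (adjusted p = 0.0564 to 0.0994). Slc16a1 (MCT1, which carries lactate and pyruvate both ways) was at 12.8 and 11.3 CPM in WT basal and 33.2 and 34.3 in WT RANKL. Slc16a1 was at 18.9 and 16.8 CPM in Mir182ΔM/ΔM basal and 45.0 and 45.5 in Mir182ΔM/ΔM RANKL. Control cells had 33.6 and 30.01 and Mir182mTg cells 31.0 and 27.96 CPM of Slc16a1. The groups with and without RANKL did not overlap within the loss-of-function experiment, while Control cells without RANKL were at the level of WT RANKL. Slc16a1 rose by 1.41 ± 0.094 in WT (adjusted p = 1.45e-05) and 1.30 ± 0.094 in Mir182ΔM/ΔM cells (adjusted p = 2.67e-05). Against Control basal the WT RANKL difference was 0.085 ± 0.095, adjusted p = 0.484. Slc2a1 (GLUT1, the main glucose transporter of most cells) rose in Mir182ΔM/ΔM cells (0.52 ± 0.088, adjusted p = 0.00187) and did not pass in WT cells (0.17 ± 0.088, adjusted p = 0.123, and 0.00636 with the replicate block). It was lower in WT RANKL than in Control basal (-0.67 ± 0.078, adjusted p = 7.78e-05). Slc2a1 and Slc16a1 were higher in Mir182ΔM/ΔM than in WT cells after RANKL (0.41 ± 0.088, adjusted p = 0.00786, and 0.41 ± 0.094, adjusted p = 0.0103). These calls were kept with TMM factors and with the replicate block. They were lost without the first WT RANKL library, and without the first Mir182ΔM/ΔM RANKL library for Slc2a1 and the second for Slc16a1 (adjusted p of at most 0.0558). Ldha, the lactate dehydrogenase that favours lactate formation, was at 394 and 463 CPM in WT basal, 627 and 753 in WT RANKL, 478 and 553 in Mir182ΔM/ΔM basal and 918 and 1108 in Mir182ΔM/ΔM RANKL. It rose in WT (0.69 ± 0.14, adjusted p = 0.00414) and Mir182ΔM/ΔM cells (0.97 ± 0.14, adjusted p = 0.00088) and was higher in Mir182ΔM/ΔM than in WT cells after RANKL (0.55 ± 0.14, adjusted p = 0.0165), a call lost without the first WT RANKL or the second Mir182ΔM/ΔM RANKL library (adjusted p = 0.0905 to 0.0947). Ldhb, which favours pyruvate, rose by 0.79 in WT and 0.70 in Mir182ΔM/ΔM cells, the latter call being lost without the first Mir182ΔM/ΔM basal or either Mir182ΔM/ΔM RANKL library (adjusted p = 0.0503 to 0.0523). Per kilobase Ldhb remained a small part of the pair, at 2.05% ± 0.0187 (SD, n = 2) of Ldha plus Ldhb in WT RANKL and 1.11% ± 0.151 in Mir182ΔM/ΔM RANKL. Neither lactate dehydrogenase passed in WT RANKL against Control basal (adjusted p = 0.358 and 0.110). Both were called higher there with the replicate block (adjusted p = 2.62e-06 and 0.0149).

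At the entry to glycolysis, Hk2, Hk3, Pfkfb3 and Pfkfb4 fell with RANKL in both genotypes. Of the 9 genes of hexose phosphorylation and fructose bisphosphate control, 1 was higher and 4 lower in WT cells, beside 40.6% and 22.0% of all genes. In Mir182ΔM/ΔM cells 1 was higher and 5 lower, beside 30.4% and 26.4% of all genes. In WT cells the replicate block gave 3 higher and 4 lower (52.8% and 29.0% of all genes), and Control basal as the base 1 higher and 5 lower (29.6% and 23.1%). Hk3, the hexokinase typical of myeloid cells (chr13:55005985-55021385, minus strand), was at 377 and 497 CPM in WT basal and 145 and 189 in WT RANKL. Hk3 was at 422 and 521 CPM in Mir182ΔM/ΔM basal and 122 and 149 in Mir182ΔM/ΔM RANKL. Control cells had 319 and 398 and Mir182mTg cells 294 and 363 CPM of Hk3. The second replicate was higher in every condition, and the RANKL and basal libraries did not overlap. The log2 change of Hk3 was -1.38 ± 0.19, adjusted p = 0.000572, in WT cells, -1.79 ± 0.19, adjusted p = 0.000186, in Mir182ΔM/ΔM cells and -1.10 ± 0.20, adjusted p = 0.00125, for WT RANKL against Control basal. Hk2, the inducible hexokinase, fell too (-0.43 and -0.50, and -1.11 in WT RANKL against Control basal). Hk1, the widely expressed form, did not pass in either genotype (0.22 and -0.015), and was called higher in WT cells with the replicate block (adjusted p = 5.21e-06). Within the 3 hexokinases, Hk3 made up 70.0% ± 5.77 (SD, n = 2) of the CPM per kb in WT basal and 71.1% ± 4.52 in Mir182ΔM/ΔM basal. After RANKL it held 45.5% ± 6.55 in WT and 43.4% ± 6.38 in Mir182ΔM/ΔM cells, where Hk1 held 47.0% ± 6.47 and 47.6% ± 6.55. Pfkfb4 and Pfkfb3, which make and remove fructose 2,6-bisphosphate, the activator of phosphofructokinase, fell as well. Pfkfb4 was at 53.9 and 68.3 CPM in WT basal and 26.7 and 30.4 in WT RANKL. Pfkfb4 was at 53.7 and 66.8 CPM in Mir182ΔM/ΔM basal and 22.1 and 26.6 in Mir182ΔM/ΔM RANKL. Control cells had 40.9 and 48.0 and Mir182mTg cells 40.3 and 49.9 CPM of Pfkfb4, so that all 4 RANKL libraries lay below the other 8. The log2 changes were -1.06 ± 0.16, adjusted p = 0.000933, in WT and -1.27 ± 0.16, adjusted p = 0.000451, in Mir182ΔM/ΔM cells for Pfkfb4, and -0.37 and -0.71 for Pfkfb3. Both were also lower in WT RANKL than in Control basal (-0.62 and -0.66). The related Pfkfb2, from the list of further genes, was at 53.5 and 56.9 CPM in WT basal, 113 and 119 in WT RANKL, 51.0 and 55.2 in Mir182ΔM/ΔM basal and 49.6 and 57.8 in Mir182ΔM/ΔM RANKL. Among the phosphofructokinases, Pfkm fell in Mir182ΔM/ΔM cells (-0.66 ± 0.11, adjusted p = 0.00167) and was lower there than in WT cells after RANKL (-0.59 ± 0.11, adjusted p = 0.00436). Pfkp rose in WT cells (0.45 ± 0.063, adjusted p = 0.000638) and Pfkl in Mir182ΔM/ΔM cells (0.61 ± 0.19, adjusted p = 0.0256, lost without the first Mir182ΔM/ΔM basal or the second Mir182ΔM/ΔM RANKL library, adjusted p = 0.125 to 0.138). Pfkp was lower in WT RANKL than in Control basal (-0.29 ± 0.053, adjusted p = 0.00147), opposite to its change against WT basal. The Pfkm share of the 3 phosphofructokinases per kilobase was 18.6% ± 0.513 in Mir182ΔM/ΔM basal and 9.75% ± 0.153 in Mir182ΔM/ΔM RANKL, and 21.0% ± 0.304 and 16.3% ± 0.614 in WT cells. The interaction calls of Pfkm and Pfkp were lost with TMM factors (adjusted p = 0.0951 and 0.284).

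In the lower part of glycolysis Aldoa, Tpi1, Pgk1, Pkm and Eno2 rose with RANKL in both genotypes against their own basal cells, while Aldoc fell. Of the 8 genes tested, 5 were higher and 1 lower in each genotype, beside 40.6% and 22.0% of all genes in WT and 30.4% and 26.4% in Mir182ΔM/ΔM cells. After RANKL 4 were higher and 1 lower in Mir182ΔM/ΔM than in WT cells, beside 14.3% and 30.9% of all genes. In WT cells the count was 3 higher and 2 lower with TMM factors (28.8% and 30.5% of all genes), and 5 and 2 with the replicate block (52.8% and 29.0%). It was 2 and 3 with Control basal as the base (29.6% and 23.1%). Aldoc (chr11:78322968-78327781, plus strand), the aldolase typical of brain, was at 73.8 and 75.0 CPM in WT basal and 62.7 and 63.2 in WT RANKL. Aldoc was at 57.2 and 58.8 CPM in Mir182ΔM/ΔM basal and 17.3 and 15.9 in Mir182ΔM/ΔM RANKL. Control cells had 33.1 and 37.1 and Mir182mTg cells 41.5 and 40.1 CPM of Aldoc. The Mir182ΔM/ΔM RANKL libraries were the lowest of the 12, and no pair of loss-of-function conditions overlapped. Aldoc fell in Mir182ΔM/ΔM cells (-1.75 ± 0.070, adjusted p = 1.8e-06). The Mir182ΔM/ΔM minus WT difference after RANKL was -1.86 ± 0.070, adjusted p = 3.15e-06, the largest of the 35 genes in that comparison. In WT cells its change was -0.24 ± 0.070, adjusted p = 0.0208, lost without any 1 of the 4 WT libraries (adjusted p = 0.0644 to 0.0870) and of opposite sign against Control basal (0.83 ± 0.072, adjusted p = 1.13e-05). The interaction was -1.51 ± 0.099, adjusted p = 0.000115, and -2.58 ± 0.10, adjusted p = 2.43e-07, with Control basal as the base. Per kilobase Aldoc was a minor aldolase throughout, at 3.96% ± 0.106 (SD, n = 2) of Aldoa plus Aldoc in WT basal, 2.19% ± 0.0230 in WT RANKL, 3.001% ± 0.0343 in Mir182ΔM/ΔM basal and 0.543% ± 0.0260 in Mir182ΔM/ΔM RANKL. Aldoa, the major form, rose in both genotypes (0.64 ± 0.059 and 0.69 ± 0.059, interaction 0.053 ± 0.084, adjusted p = 0.698) and was higher in WT RANKL than in Control basal (0.37 ± 0.052, adjusted p = 0.000246). Tpi1 (triosephosphate isomerase) also rose in both (0.69 and 0.83) and was higher in Mir182ΔM/ΔM than in WT cells after RANKL (0.32 ± 0.077, adjusted p = 0.0135), a call lost without the first Mir182ΔM/ΔM RANKL or the second WT RANKL library (adjusted p = 0.0814 to 0.0827). Its WT increase was not called against Control basal (0.20 ± 0.076, adjusted p = 0.0541), but was with the replicate block (adjusted p = 2.61e-07). Pgk1 (phosphoglycerate kinase, the first step that yields ATP) was at 187 and 180.1 CPM in WT basal, 225 and 218 in WT RANKL, 191 and 190.2 in Mir182ΔM/ΔM basal and 307 and 316 in Mir182ΔM/ΔM RANKL. Pkm was at 1274 and 1314, 1509 and 1617, 1336 and 1396 and 2166 and 2274 in the same order. For both genes the Mir182ΔM/ΔM RANKL libraries were the highest of the 12. Pgk1 rose by 0.71 ± 0.056, adjusted p = 4.3e-05, and Pkm by 0.70 ± 0.066, adjusted p = 0.000105, in Mir182ΔM/ΔM cells, and both were higher there than in WT cells after RANKL (0.49 ± 0.056 and 0.51 ± 0.066). Their WT changes were smaller (0.27 ± 0.056, adjusted p = 0.00449, and 0.27 ± 0.066, adjusted p = 0.00952) and not called with TMM factors (adjusted p = 0.333 and 0.446). That of Pkm was also lost without the first WT basal or the second WT RANKL library (adjusted p = 0.0508 to 0.0678). Against Control basal the WT RANKL difference was -0.058 ± 0.049, adjusted p = 0.352, for Pgk1 and of the opposite sign for Pkm (-0.26 ± 0.062, adjusted p = 0.00656). The interaction was 0.44 ± 0.080, adjusted p = 0.00725, for Pgk1 and 0.43 ± 0.094, adjusted p = 0.0156, for Pkm. The latter was lost without the first WT RANKL, the second WT basal, the first Mir182ΔM/ΔM basal or the second Mir182ΔM/ΔM RANKL library (adjusted p = 0.0543 to 0.0668). Pgam1 (phosphoglycerate mutase) did not pass with RANKL in either genotype (-0.27 in WT and 0.16 in Mir182ΔM/ΔM cells) but was higher in Mir182ΔM/ΔM than in WT cells after it (0.64 ± 0.13, adjusted p = 0.00577). With the replicate block it was lower in WT (adjusted p = 0.000221) and higher in Mir182ΔM/ΔM cells (adjusted p = 0.0188). It was also lower in WT cells with TMM factors (adjusted p = 0.0163) or against Control basal (-0.67 ± 0.13, adjusted p = 0.00238). Eno2, at 1.90 to 5.04 CPM, rose in both (0.70 and 0.49), the Mir182ΔM/ΔM call being lost without the first Mir182ΔM/ΔM basal or the second Mir182ΔM/ΔM RANKL library (adjusted p = 0.0821 to 0.0831), and the WT call not made against Control basal (0.19 ± 0.12, adjusted p = 0.230).

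Both branches of the pentose phosphate pathway were touched by RANKL, the NADPH-forming dehydrogenases falling in both genotypes and Taldo1 changing in opposite directions. In the oxidative branch, G6pdx (glucose-6-phosphate dehydrogenase, the entry enzyme) was at 628 and 579 CPM in WT basal and 334 and 308 in WT RANKL. G6pdx was at 541 and 510.5 CPM in Mir182ΔM/ΔM basal and 379.9 and 357 in Mir182ΔM/ΔM RANKL. Control cells had 454 and 427 and Mir182mTg cells 488 and 441 CPM of G6pdx. Pgd was at 1048 and 1009, 613 and 599.9, 947 and 915, 656 and 626, 957 and 901 and 929 and 881 CPM in the same order. For both genes the 4 RANKL libraries lay below the other 8. G6pdx changed by -0.91 ± 0.075, adjusted p = 4.42e-05, in WT and -0.51 ± 0.075, adjusted p = 0.00097, in Mir182ΔM/ΔM cells. Pgd changed by -0.76 ± 0.059, adjusted p = 3.16e-05, and -0.54 ± 0.059, adjusted p = 0.000219. The falls in WT RANKL were also called against Control basal (-0.46 for G6pdx and -0.61 for Pgd), as was the increase of Pgls (0.37), the lactonase between them. Pgls rose with RANKL (0.63 ± 0.099 in WT and 0.39 ± 0.099 in Mir182ΔM/ΔM cells), the Mir182ΔM/ΔM call being lost without the first Mir182ΔM/ΔM RANKL or the second Mir182ΔM/ΔM basal library (adjusted p = 0.0616 to 0.0775). Pgls was lower in Mir182ΔM/ΔM than in WT cells after RANKL (-0.40 ± 0.099, adjusted p = 0.0149), a call lost with TMM factors (adjusted p = 0.0968) and without the second WT RANKL or the second Mir182ΔM/ΔM RANKL library (adjusted p = 0.0837 to 0.0890). In the non-oxidative branch, Taldo1 (transaldolase, chr7:141392199-141402968, plus strand) was at 398 and 443 CPM in WT basal and 332 and 365 in WT RANKL. Taldo1 was at 367 and 395 CPM in Mir182ΔM/ΔM basal and 651 and 735 in Mir182ΔM/ΔM RANKL. Control cells had 619 and 710.3 and Mir182mTg cells 619 and 678 CPM of Taldo1. The Mir182ΔM/ΔM RANKL libraries were far above the other loss-of-function libraries and overlapped with the Control and Mir182mTg libraries, which had no RANKL. Taldo1 rose by 0.86 ± 0.092, adjusted p = 0.000195, in Mir182ΔM/ΔM cells and changed by -0.27 ± 0.092, adjusted p = 0.0368, in WT cells. The interaction was 1.13 ± 0.13, adjusted p = 0.00102, and of 1.79 ± 0.14, adjusted p = 1.08e-05, with Control basal as the base. The WT fall of Taldo1 was lost without the first WT RANKL, the second WT basal or either Mir182ΔM/ΔM basal library (adjusted p = 0.0509 to 0.181), and was larger against Control basal (-0.93 ± 0.098, adjusted p = 4.03e-05). Tkt (transketolase), the most abundant of this branch by CPM, stayed at 643 to 771 CPM over the 12 libraries and passed in no comparison. With the replicate block it was higher after RANKL in WT (0.000161) and Mir182ΔM/ΔM cells (0.000844, both adjusted p). Rpe (ribulose-phosphate epimerase) was lower in WT cells after RANKL (-0.33 ± 0.088, adjusted p = 0.0130) and higher in Mir182ΔM/ΔM than in WT cells after it (0.41 ± 0.088, adjusted p = 0.00783). The first call was lost without the first WT basal or the second WT RANKL library and the second without the first Mir182ΔM/ΔM RANKL or the second WT RANKL library (adjusted p of at most 0.0785 and 0.0534). Rpia (ribose-phosphate isomerase) rose in WT cells (0.34 ± 0.12, adjusted p = 0.0446), a call lost with TMM factors and without any 1 of 6 libraries, all but the Mir182ΔM/ΔM RANKL ones (adjusted p = 0.0523 to 0.192). Against Control basal Rpe was lower (-0.44, adjusted p = 0.00228) and Rpia did not pass (adjusted p = 0.143, and 0.0295 with the replicate block).

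**Figure D5:**
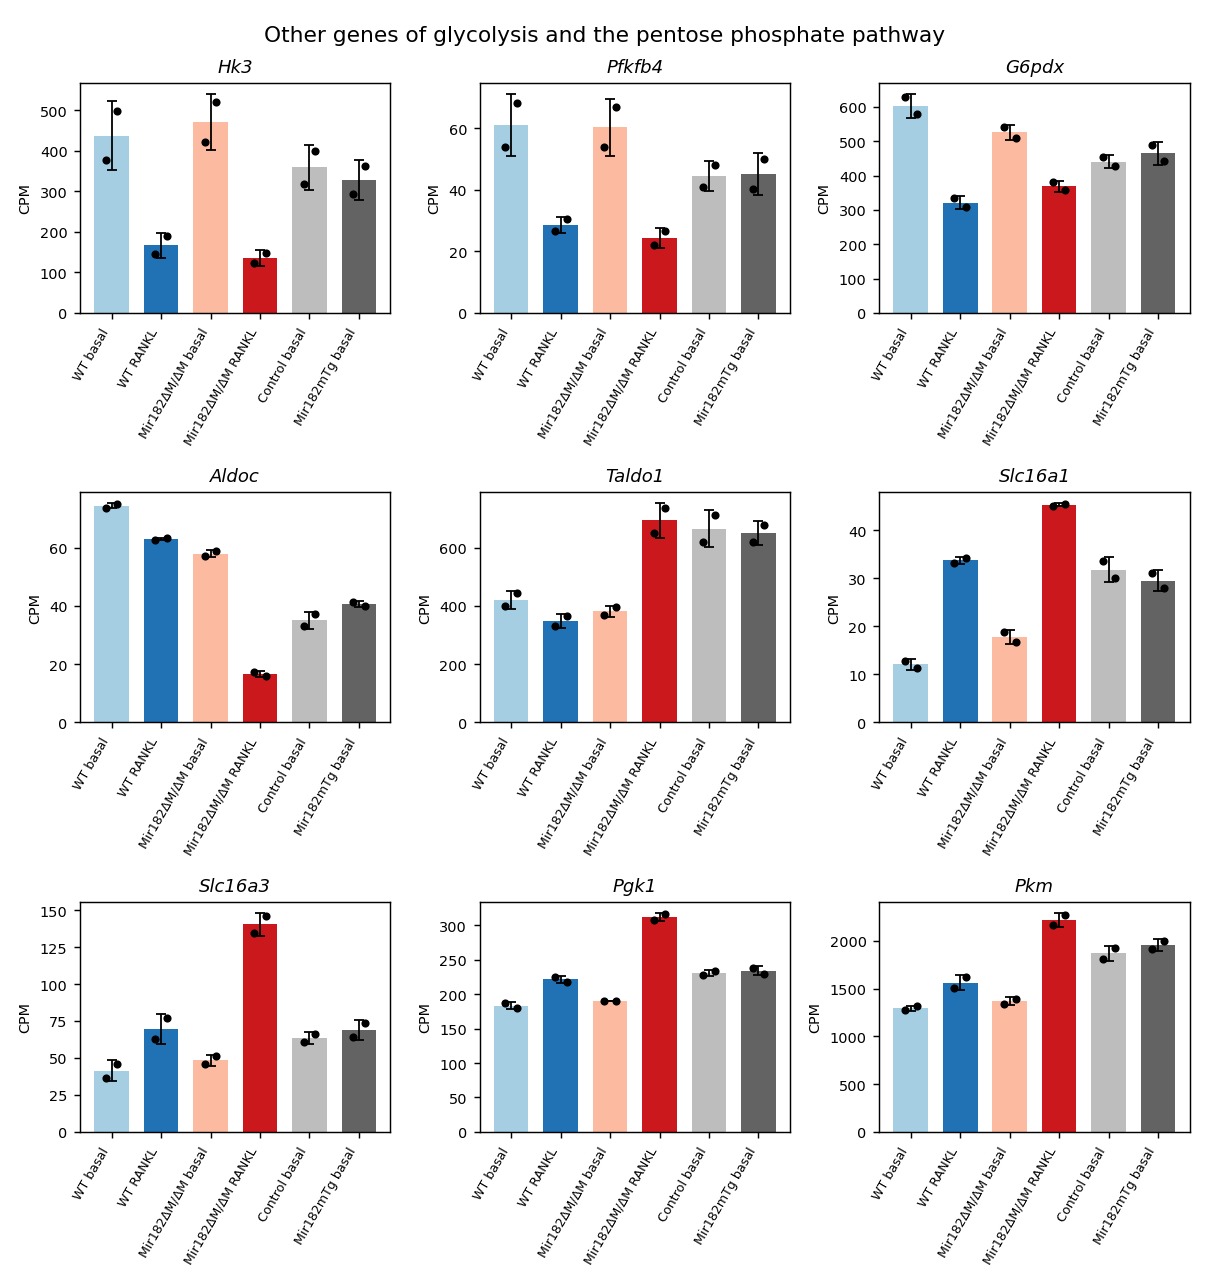
CPM (y axes, from 0) of 9 genes in the 6 conditions (x axes), with bars for the mean, error bars for the SD of 2 replicates and points for the libraries. Hk3, Pfkfb4 and G6pdx are lower in both RANKL conditions than in the basal ones, Aldoc is lowest and Slc16a1, Slc16a3, Pgk1 and Pkm are highest in Mir182ΔM/ΔM RANKL, and Taldo1 in Mir182ΔM/ΔM RANKL is at the level of Control and Mir182mTg cells.

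Without RANKL, 3 of the 35 genes differed between the genotypes. Of the 35 genes, Slc16a1 (0.53 ± 0.094, adjusted p = 0.0291) and Pfkp (0.31 ± 0.063, adjusted p = 0.0468) were higher and Aldoc (-0.35 ± 0.070, adjusted p = 0.0425) was lower in Mir182ΔM/ΔM than in WT cells, beside 2.71% of all genes higher and 1.10% lower (2.53% and 1.19% with TMM factors, where the members' counts were the same). The means moved from 12.1 ± 1.09 CPM (SD, n = 2) to 17.8 ± 1.44 CPM for Slc16a1, from 83.4 ± 3.92 CPM to 104 ± 2.11 CPM for Pfkp and from 74.4 ± 0.886 CPM to 58.0 ± 1.16 CPM for Aldoc. None of these calls remained when any 1 of the 8 libraries was left out (adjusted p = 0.0627 to 0.2004 for Slc16a1, 0.0904 to 0.261 for Pfkp and 0.0627 to 0.261 for Aldoc). Nor did they in a fit without both WT RANKL libraries, where 0 of 35 passed (1.85% and 0.691% of 11430 genes). With the replicate block 14 genes were higher and 5 lower (18.6% and 12.7% of all genes), among them Ldha (0.27, adjusted p = 2.18e-07), Tpi1 (0.18, 3.97e-05) and Pdk1 (0.22, 0.000259) as higher. Among those lower were G6pdx (-0.20, 1.17e-05), Pgd (-0.14, 0.000269) and Taldo1 (-0.14, 0.00069). In Mir182mTg against Control cells, edgeR's quasi-likelihood test called 0 of the 35 genes, with edgeR log2 fold changes from -0.28 for Hk2 to 0.39 for Eno2. Of all 12081 genes, 0.0993% were higher and 0.157% lower. At an unadjusted p under 0.05, 3 of the 35 passed, and DESeq2 also called 0. With the replicate block 4 were higher (Pfkp, Aldoa, Aldoc and Ldha) and 6 lower (Hk2, Hk3, Pgam1, Pdk1, Pdk3 and Pgls), beside 6.94% and 8.15% of all genes, with adjusted p from 5.86e-05 for Hk2 to 0.0348 for Pgam1. Hk2 was at 102 and 99.6 CPM in Control and 84.0 and 83.0 CPM in Mir182mTg cells, and Pdk1 at 96.7 and 94.0 and 80.03 and 82.9 CPM, with no overlap between the groups for either gene.

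Of a list of 38 further enzymes and transporters next to these pathways, 27 were expressed enough for the test. In WT cells 17 were higher and 8 lower after RANKL, beside 40.6% and 22.0% of all genes. In Mir182ΔM/ΔM cells the 8 higher and 7 lower lay near the shares of all genes (30.4% and 26.4%). Between the genotypes, 4 were higher and 12 lower in Mir182ΔM/ΔM than in WT cells under RANKL, with a median of -0.34 beside -0.14 over all genes (14.3% higher and 30.9% lower). With TMM factors the split was 8 higher and 8 lower, with a median of -0.19 beside -0.0037 over all genes (20.9% and 20.2%). By the size of that difference, the leading genes were Eno1b, Prps2, Pfkfb2, Slc2a3, Gys1 and Dld. Control basal means were 17.3 CPM for Eno1b, 27.6 for Slc2a3 and 148 for Dld, beside 20.1, 8.49 and 245 in WT RANKL. Prps2, which makes the ribose donor for nucleotides, fell with RANKL from 159 and 146 to 53.4 and 51.0 CPM in WT cells and from 165 and 155 to 124 and 118 CPM in Mir182ΔM/ΔM cells. The Mir182ΔM/ΔM minus WT difference after RANKL was 1.2 ± 0.072, adjusted p = 2.14e-05. Gys1 (glycogen synthase) rose from 28.4 and 24.0 to 81.8 and 74.1 CPM in WT and from 24.4 and 23.8 to 46.9 and 41.5 CPM in Mir182ΔM/ΔM cells. Slc2a3 (GLUT3, a high-affinity glucose transporter) fell from 22.0 and 26.5 to 7.58 and 9.39 CPM and from 26.6 and 30.7 to 15.2 and 18.9 CPM. Of 19 other genes known to respond to hypoxia, 18 were tested and 3 were higher and 7 lower in Mir182ΔM/ΔM than in WT cells after RANKL. These counts lay near the shares of all genes given above (14.3% and 30.9%). With TMM factors the counts were 4 and 7, beside 20.9% and 20.2% of all genes, so the share lower then lay above that of all genes. The leading genes of that list were Ankrd37 (1.16), Hilpda (-0.98), Ndrg1 (-0.82) and Bnip3l (-0.79). Of 12 genes of NADPH supply and the NRF2 response, 4 were higher and 4 lower in that comparison (5 and 2 with TMM factors), beside the same shares of all genes. The list was led by Nqo1 (0.996), Slc7a11 (-0.93), Idh2 (-0.87) and Me1 (0.56). Nqo1, an NADPH-dependent quinone reductase, was at 10.3 and 12.8 CPM in WT basal, 10.5 and 11.4 in WT RANKL, 10.7 and 11.1 in Mir182ΔM/ΔM basal and 21.2 and 24.6 in Mir182ΔM/ΔM RANKL, so that only the Mir182ΔM/ΔM RANKL libraries stood above the rest. Idh2, the mitochondrial isocitrate dehydrogenase, was high in WT RANKL alone, at 112 and 123, 224 and 237, 119 and 127 and 118 and 134 CPM in the same order.

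The hypoxia-inducible factors bind ACGTG or GCGTG in DNA, and glycolytic genes are among their textbook targets. The promoters (250 bases before to 50 after the start, RefSeq, GRCm38.p6) were searched for these letters on both strands. Promoters were found for all 36 genes, 51 in all, and 39 held ACGTG or GCGTG (76.5%), beside 43.8% of 32851 promoters of the same length. ACGTG was in 22 (43.1%, beside 19.6%). CACGTG, which holds ACGTG on both strands, was in 5 of the 51 (9.80%, beside 7.15%). Stretches of 29 bases are shown for 4 of the genes higher in Mir182ΔM/ΔM cells after RANKL and for Pdk2, which was lower, with ACGTG, or CACGT where it lies on the other strand, in capitals.
Ldha (chr7:46845745-46845773, plus strand): ggcccagcctacACGTGggttcccgcacg
Pgk1 (chrX:106186938-106186966, plus strand): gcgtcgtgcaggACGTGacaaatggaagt
Slc16a3 (chr11:120949028-120949056, plus strand): caggcagcggtgACGTGcgcgggggacgt
Slc2a1 (chr4:119108697-119108725, plus strand): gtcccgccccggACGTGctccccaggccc
Pdk2 (chr11:95041481-95041509, minus strand): ctcgaggagagcCACGTgtcgaagcgcaa
Aldoc, Pfkfb3 and Pfkfb4, which were lowest in Mir182ΔM/ΔM RANKL, also held ACGTG or GCGTG, and Tpi1, which was highest there, held neither. Genes on either side of the difference thus held the motif, and a match describes letters, not binding. The part of these factors in the differences was not tested.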

How the data were processed

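RNA was measured by poly-A RNA sequencing with an Illumina TruSeq kit in 12 libraries, grouped by the labels. The authors aligned reads to mm10, with TopHat for replicate 1 and HISAT2 for replicate 2 per the labels, and counted reads per gene with HTSeq. Versions and the gene annotation are not given in the sources used here. The authors deposited CPM for the 8 loss-of-function libraries and raw counts for the 4 gain-of-function libraries. The deposited RPKM values of replicate 1, which the authors made with Cufflinks, served here only to derive gene lengths for levels per kilobase.

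The deposited CPM were each library's counts divided by its total, and the reads behind them were recovered, with 100% of values whole within 0.05 reads. Log2(CPM + 1) was fitted with limma 3.58.1 (lmFit, eBayes with a trend, 4 groups in one fit) on 11691 genes that reached 1 CPM in 2 or more libraries. The gain-of-function counts, 12081 genes after filterByExpr, were tested with edgeR 4.0.16 (TMM, quasi-likelihood). DESeq2 1.42.0 was an alternative. Tests were two-sided, with Benjamini-Hochberg adjustment over all genes tested and a threshold of 0.05. The scripts were tested on simulated data. Replicate numbers pair the samples: deviations of same-numbered libraries from their group means correlated at 0.711 to 0.776 over 6 loss-of-function pairs and at 0.763 in the gain-of-function pair. Since the number goes with the aligner, batch and aligner cannot be told apart.

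The members, lists and tests were chosen with earlier results of these data known. Members with an adjusted p under 0.05 and an absolute log2 fold change (or interaction) of at least 1 are given in every sample, as are others where a role group is described. Up to 6, 4 and 4 genes with the largest genotype difference after RANKL are named from the lists of pathway, hypoxia and NADPH genes. The values of Pdhx, Pdp1 and Pdp2, outside that rule, were chosen after their values were seen. Fits with Control basal as the base, and without the WT RANKL libraries, were also added after seeing the data. TMM factors, a replicate block, other filters, pseudocounts and scalings, edgeR on the recovered reads and leaving out each library were the other alternatives.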

Additional observations from a re-analysis of the deposited data

Results flagged for a closer look

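The response to RANKL differed between the genotypes, by the interaction term of the limma fit, for 14 of the 35 genes, beside 7.44% of all genes with a more positive and 17.1% with a more negative response in Mir182ΔM/ΔM cells. On the log2 scale, the response in Mir182ΔM/ΔM cells minus that in WT cells was 1.13 for Taldo1, 0.77 for Slc16a3, 0.44 for Pgk1, 0.43 for Pkm and 0.40 for G6pdx. It was -1.51 for Aldoc, -1.11 for Pdk2, -0.94 for Pdhb, -0.90 for Dlat, -0.85 for Pdha1, -0.74 for Pdk3, -0.60 for Pfkm, -0.55 for Pdk1 and -0.32 for Pfkp. All 14 use the WT RANKL libraries, whose Lyz2 and Ifi202b levels stood apart, and their part in these differences was not tested. With Control basal in place of WT basal, chosen after seeing the data, 9 of the 14 were called in the same direction, Pfkp was called in the opposite direction (0.42 ± 0.075, adjusted p = 0.00155), and Pdk1 (-0.054 ± 0.086, adjusted p = 0.640), Pdk3 (-0.23 ± 0.094, adjusted p = 0.0692), Dlat (-0.15 ± 0.083, adjusted p = 0.166) and G6pdx (-0.056 ± 0.11, adjusted p = 0.698) were not called. Leaving out 1 library ended the call for Pfkp in each of 8 cases (adjusted p = 0.0533 to 0.131), for G6pdx in 7, all but the second WT basal library (adjusted p = 0.0501 to 0.117), and for Pfkm in 5, both WT RANKL libraries, the first WT basal, the second Mir182ΔM/ΔM basal and the first Mir182ΔM/ΔM RANKL library (adjusted p = 0.0672 to 0.0956), beside those of Slc16a3, Pkm and Pdk2 named with their values above. The calls of Aldoc, Taldo1, Pgk1, Pdhb, Pdha1, Dlat, Pdk1 and Pdk3 held with each of the 8 libraries left out.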

How the results depend on the processing

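Of 89 single calls on these genes, 60 were kept under every alternative fixed for the analysis, 27 were lost on leaving out at least 1 library, 18 under another such alternative (9 with TMM factors, none with the replicate block), and none changed direction under them. The replicate block, which follows the pairing of the libraries, raised the counts higher and lower to 14 and 5 at baseline, 13 and 14 in the interaction, 4 and 6 in Mir182mTg against Control and, for genes lower in Mir182ΔM/ΔM than in WT cells after RANKL, to 14, and with TMM factors added gave 19 higher after RANKL, 13 and 5 at baseline and 15 more positive in the interaction. TMM factors alone and edgeR on the recovered reads each gave 16 higher after RANKL and 8 more positive in the interaction. Over all 12579 genes it tested, edgeR on those reads called 3536 higher and 3679 lower in the WT response, 3439 and 3474 in the Mir182ΔM/ΔM response, and 2481 and 2448 between genotypes after RANKL. At baseline 1 gene was higher with no filter, with quantile normalization or with edgeR on the recovered reads, and 0 were higher or lower in a fit of those 4 libraries alone or without WT RANKL libraries. Leaving out 1 library gave 16 to 18 higher and 7 to 9 lower in WT cells, 14 to 18 and 8 to 9 in Mir182ΔM/ΔM cells, 7 to 10 and 8 to 9 between genotypes after RANKL, 0 and 0 at baseline, 2 to 4 and 6 to 8 in the interaction, and 0 and 0 in Mir182mTg against Control, a lone library being assumed to vary like the other groups.

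With Control basal in place of WT basal, 10 were higher in WT cells (9 higher and 14 lower with TMM factors, 18 higher with the replicate block). In the interaction 14 were more positive (14 and 5 with TMM factors, 16 with the replicate block). In that form, with TMM factors and with the replicate block in turn, the WT response was -0.29, -0.38, -0.29 for Pfkp, 0.83, 0.74, 0.83 for Aldoc, -0.058, -0.15, -0.058 for Pgk1 and -0.26, -0.35, -0.26 for Pkm, that of Slc16a1 was -0.0012 with TMM factors, and the interaction was 0.42, 0.47, 0.42 for Pfkp and -0.056, -0.0049, -0.056 for G6pdx. The cause was not tested. In the order WT basal, WT RANKL, Mir182ΔM/ΔM basal, Mir182ΔM/ΔM RANKL, Control and Mir182mTg, the mean log2 level was 6.06, 6.34, 6.12, 6.27, 6.30 and 6.30 with a pseudocount of 0.1, 6.29, 6.36, 6.33, 6.44, 6.41 and 6.40 with TMM factors over the 12 libraries, and 5.97, 6.38, 5.98, 6.32, 6.35 and 6.29 as a median. Gapdh and Eno2, at a few CPM, were the members with the fewest reads above 0, and what the low counts of Gapdh and Eno1 came from was not tested.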
